A study of Mus musculus with 10 samples.

Results

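Interferon response genes are the transcripts that a cell raises after it senses interferon, and 37 such genes were examined in livers of Etnppl knockout mice. Their symbols were listed from the known biology of type I and type II interferon, each matched 1 row of the deposited expression table of 47702 genes, and all 37 were among the 12247 genes tested. Etnppl encodes ethanolamine-phosphate phospho-lyase, which breaks down an intermediate of phosphatidylethanolamine synthesis. The knockout (KO) group was 5 liver libraries from female mice with a whole-body Etnppl knockout, and the wild-type (WT) group was 5 liver libraries from female mice with an intact gene. Every animal in either group was on a chow diet for 20 weeks, and no agent or infection was named for any group. The sources used here state no ages, no strain and no targeted exons. Values are FPKM, which scales fragments by transcript length and by library total, from poly-A RNA of whole liver.

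Type I interferons signal through a receptor that brings STAT2 and IRF9 into a complex, and this complex binds the interferon-stimulated response element (ISRE). Type II interferon, or interferon gamma, signals largely through the gamma-activated sequence (GAS) in promoters, and through IRF1, which binds ISRE-like sites. Many induced genes answer to either signal. The immunity-related GTPases (IRG) and guanylate-binding proteins (GBP) are the classical gamma-type effectors, which attack the vacuoles of intracellular parasites, while the IFIT proteins, ISG15 and viperin are classical type I effectors against viruses. The 37 genes were grouped by role into 4 transcription factors, 8 GTPases of the gamma type, 7 nucleic acid sensors and RNA enzymes, and 18 other effectors of mainly type I signalling.

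Etnppl itself checked the genotype labels. Its transcript was at 17.72 to 26.43 FPKM in the KO libraries, against 43.32 to 108.4 FPKM in the WT libraries, a log2 difference of -1.49. The difference in mean FPKM was -43.64 (exact two-sided permutation test, p = 0.0079, n = 5 and 5, the smallest p that 252 arrangements allow). The steps between low values gave a relative depth of 0.901 to 1.067 in KO and 1.001 to 1.114 in WT libraries. The labelled tissue was borne out by Alb, at a mean of 43770 FPKM in KO and 41140 FPKM in WT livers. Nothing in the labels states that each library is 1 animal, and p-values refer only to the spread among these libraries.

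The library WT 1 stood apart in these genes. It had the highest value of the 5 WT libraries in 36 of the 37 genes, the exception being Xaf1, while over all tested genes it was highest in 18.3%. In the KO group KO 3 was highest in 29 of the 37 and KO 5 lowest in 28, against 21.4% and 22.6% of all tested genes. WT 4 was the lowest WT library in 25 of the 37, against 25.9% of all tested genes. WT 1 also had the lowest summed level of 5 hepatocyte markers, 53660 FPKM. The sums were 58740 to 64570 FPKM in KO and 55670 to 58990 FPKM in the other WT libraries. Alb and Apoa1 made up most of each sum. WT 1 was the lowest library for Apoa1, at 9086 FPKM, but not for Alb, at 40900 FPKM against 39870 FPKM in WT 2. The ratio of the highest to the lowest library, on FPKM + 0.5, had a median of 1.48 among KO and 1.62 among WT libraries over the 37 genes, against 1.28 and 1.3 over all tested genes. Without WT 1 the WT median was 1.31 over the 37 and 1.27 over all tested genes. The median ratio was thus larger over the interferon genes than over all tested genes in either genotype.

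**Figure D1:**
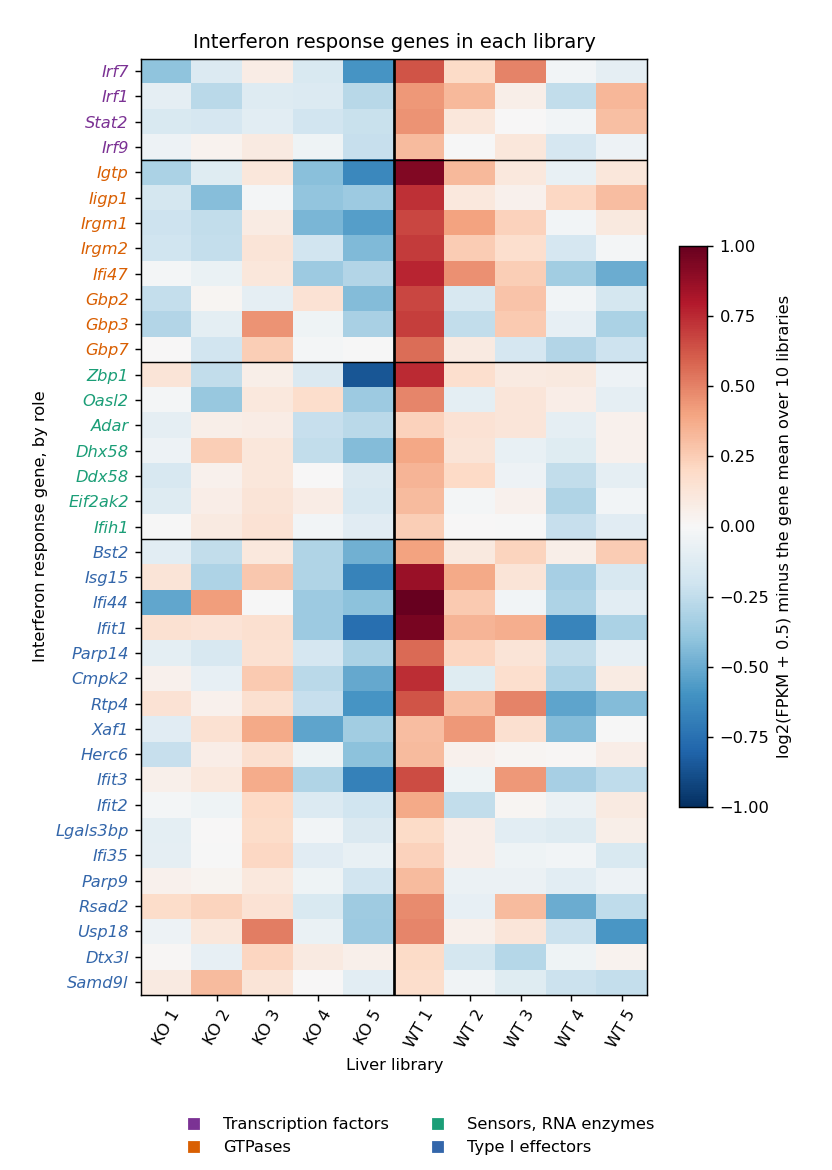
Each of the 37 interferon response genes (rows, grouped and coloured by role) in each of the 10 liver libraries (columns, KO left of WT), as log2(FPKM + 0.5) minus the gene's mean over the 10 libraries. The WT 1 column is the darkest red, KO 5 holds most of the darkest blue, and KO 3 is redder than the other KO libraries.

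Of the 37 genes, 4 fell in KO livers and none rose. Iigp1 and Irgm1, both IRG GTPases, averaged 80.4 ± 9.97 and 30.3 ± 5.42 FPKM in KO livers (SD, n = 5), against 119.5 ± 24.4 and 44.7 ± 8.82 FPKM in WT livers (SD, n = 5). Bst2, or tetherin, which holds budding virus at the cell surface, averaged 76.0 ± 11.8 FPKM in KO and 100.9 ± 9.66 FPKM in WT livers (SD, n = 5 each). Stat2, a subunit of the type I complex, averaged 9.57 ± 0.324 FPKM in KO and 12.3 ± 1.82 FPKM in WT livers (SD, n = 5 each). A gene was called when its limma p, adjusted by the Benjamini-Hochberg method over all tested genes, was under 0.05. Over all tested genes 4.56% were called lower and 3.98% higher in KO, 8.54% in all. Of the 37, 31 had a log2 difference (KO minus WT) below 0, as had 54.3% of all tested genes, and 8 had an unadjusted p under 0.05 with a lower KO level, as had 13.6% of all tested genes. Quantile normalization put 29 of the 37 below 0, median-of-ratios and upper-quartile factors 30 each, and leaving out WT 1 put 24 there. The median log2 difference was -0.18 over the 37 and -0.02 over all tested genes. Without WT 1 the median over the 37 was -0.07 and 1 of them, Iigp1, was called. No call among the 37 held whichever library was left out, as given with each gene below.

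The promoters of several of these genes carry the letters of the sites that interferon signalling is known to use. RefSeq promoter windows, from 250 bases before to 50 bases after each annotated start in GRCm38 (the assembly of mm10), were at hand for 30 of the 37 genes. The ISRE core was searched as GAAANNGAAA and the GAS element as TTCNNNGAA, on both strands. An ISRE core was present in a window of 15 of the 30 genes, and in 3.99% of the 27025 genes with a window. A GAS element was present in 9 of the 30, and in 9.55% of all genes. Among the GTPases with a window, 6 of 7 held an ISRE core and 3 of 7 a GAS element. Igtp and Irgm2, whose windows are nearly the same around both motifs, are each included in both counts. Among the other members these counts were 9 of 23 and 6 of 23. Of the 22 ISRE cores in member windows, 1 overlapped a GAS element. A match says only that these letters are present.

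The windows of Irgm1, Bst2 and Stat2 are shown because their transcripts fell, those of Igtp and Irgm2 because the same pair of motifs stands in both, and that of Isg15, a type I target that was not called, for contrast. Stretches run 5′ to 3′ on the strand of the gene, and capitals mark ISRE cores (either strand) and GAS elements. Irgm1 is given from chr11:48871371-48871570 (minus strand), Igtp from chr11:58199406-58199605 (plus strand), Irgm2 from chr11:58214827-58215026 (plus strand), Bst2 from chr8:71537423-71537622 (minus strand), Isg15 from chr4:156200769-156200968 (minus strand) and Stat2 from chr10:128270248-128270547 (plus strand) in GRCm38.
Irgm1: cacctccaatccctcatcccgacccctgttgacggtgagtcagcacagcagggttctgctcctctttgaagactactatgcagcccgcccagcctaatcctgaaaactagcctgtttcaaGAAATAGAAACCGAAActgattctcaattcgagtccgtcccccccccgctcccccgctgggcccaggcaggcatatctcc
Igtp: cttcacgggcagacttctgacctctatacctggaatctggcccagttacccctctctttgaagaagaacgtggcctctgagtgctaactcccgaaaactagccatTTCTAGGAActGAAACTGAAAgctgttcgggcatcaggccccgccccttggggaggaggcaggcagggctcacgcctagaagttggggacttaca
Irgm2: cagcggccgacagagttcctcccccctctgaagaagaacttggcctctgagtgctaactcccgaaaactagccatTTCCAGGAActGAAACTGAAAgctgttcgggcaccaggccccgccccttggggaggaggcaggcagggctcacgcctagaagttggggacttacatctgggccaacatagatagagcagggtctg
Bst2: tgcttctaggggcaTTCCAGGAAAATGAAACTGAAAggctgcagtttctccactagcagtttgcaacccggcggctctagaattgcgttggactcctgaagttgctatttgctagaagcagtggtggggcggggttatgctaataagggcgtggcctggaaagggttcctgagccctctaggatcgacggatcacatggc
Isg15: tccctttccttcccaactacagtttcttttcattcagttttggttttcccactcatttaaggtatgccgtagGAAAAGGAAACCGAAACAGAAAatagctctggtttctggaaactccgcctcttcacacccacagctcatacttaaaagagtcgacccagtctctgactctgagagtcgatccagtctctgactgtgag
Stat2: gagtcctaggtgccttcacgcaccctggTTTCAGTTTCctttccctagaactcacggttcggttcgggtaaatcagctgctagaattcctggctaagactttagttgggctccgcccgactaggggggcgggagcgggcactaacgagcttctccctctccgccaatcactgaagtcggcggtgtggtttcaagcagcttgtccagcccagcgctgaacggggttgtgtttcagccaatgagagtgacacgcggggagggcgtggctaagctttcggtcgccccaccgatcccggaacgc

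In Irgm1, a gene of the minus strand, a pair of overlapping ISRE cores filled positions -30 to -15, with the annotated start as position 0. Igtp and Irgm2 each had a GAS element whose first base lay 11 bases before the first base of the ISRE core. Laid on each other at that core without gaps, their windows matched at 184 of 270 bases (68.1%). The matches were unevenly spread, and the stretch around both motifs was nearly the same in both genes. The motifs of Igtp and Irgm2 are thus not separate observations. In Bst2 a GAS element ran into a pair of overlapping ISRE cores between -136 and -115. Isg15 had a run of 3 overlapping ISRE cores between -78 and -57. The single ISRE core of Stat2 lay farther out, at -222 to -213, on the strand opposite to the gene. Overlapping ISRE cores were thus present in genes that were called, Irgm1 and Bst2, and in genes that were not, Isg15 and Gbp3.

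**Figure D2:**
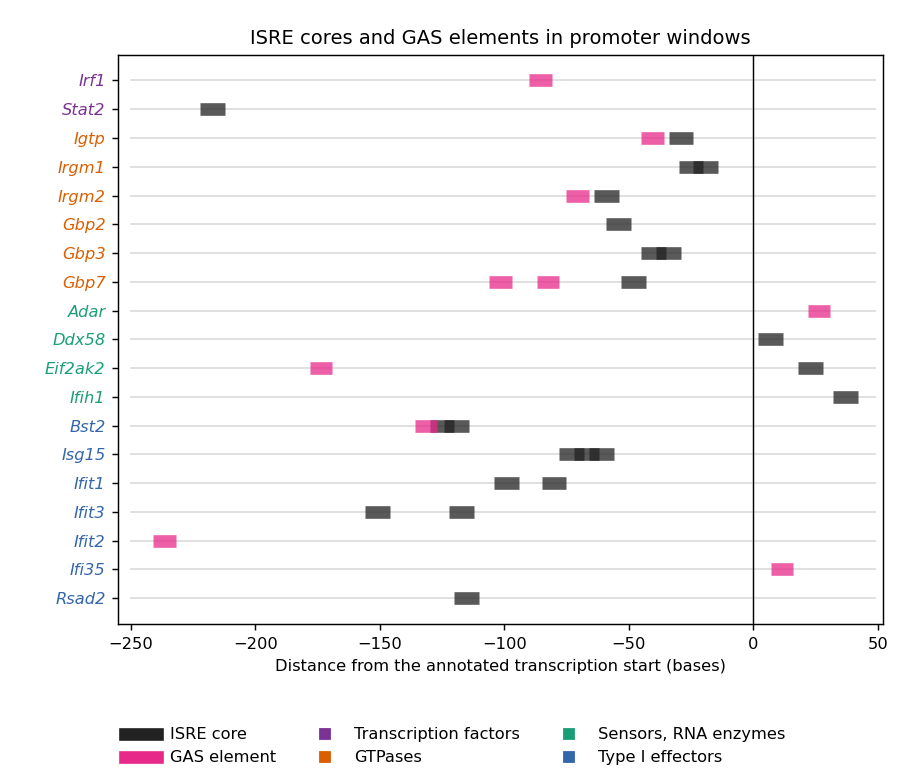
Positions of ISRE cores (dark) and GAS elements (pink) in the promoter windows of the 19 members that hold at least 1 of them, as distance in bases from the annotated transcription start (vertical line). Gene names are coloured by role. Igtp and Irgm2 show the same order and spacing of both motifs, and Isg15, Bst2, Irgm1 and Gbp3 show overlapping ISRE cores.

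Among the GTPases, Iigp1 (Irga6), an effector IRG protein that coats parasite vacuoles, was the member with the smallest p. It was at 85.67, 72.17, 95.49, 73.56 and 75.15 FPKM in KO 1 to KO 5, against 160.9, 104.4, 100.1, 111.8 and 120.1 FPKM in WT 1 to WT 5. Every KO library lay below every WT library, by a margin of KO 3 at 95.49 against WT 3 at 100.1 FPKM. Such a lack of overlap, with KO lower, was found for 2 of the 37 genes and for 4.78% of all tested genes. Iigp1 thus had a log2 difference of -0.56 (SE 0.12, with an adjusted p of 0.022 in limma), and it ranged from -0.62 to -0.44 with 1 library left out. The call was lost without KO 2, KO 4, KO 5 or WT 5 (limma adjusted p up to 0.055) and held without WT 1.

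Irgm1, a regulatory IRG protein that keeps the effector GTPases inactive on the cell's own membranes, was at 31.43, 30.63, 38.54, 26.32 and 24.63 FPKM in KO 1 to KO 5, against 58.08, 48.21, 42.75, 35.59 and 38.93 FPKM in WT 1 to WT 5. KO 3 lay above WT 4 and the other KO libraries lay below all WT libraries. For Irgm1 the log2 difference came to -0.55 (SE 0.14, limma adjusted p = 0.039). This call held only without KO 3 or without WT 4 (limma adjusted p up to 0.086 without any of the others). Irgm1 spans 48861968 to 48871683 on the minus strand of chromosome 11 in mm10.

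Igtp (Irgm3) and Irgm2, the other regulatory IRG proteins, had lower means in KO livers but were not called. Igtp was at 20.03, 22.96, 27.09, 18.58 and 15.88 FPKM in KO 1 to KO 5, against 47.95, 31.44, 26.92, 23.79 and 27.14 FPKM in WT 1 to WT 5. Only KO 3 reached into the WT range, and WT 1 was far above the other libraries. Its log2 difference of -0.56 was as large as that of Iigp1, with a wider error (SE 0.19, limma adjusted p = 0.096). Irgm2 averaged 18.2 ± 2.74 FPKM in KO and 24.2 ± 6.01 FPKM in WT livers (SD, n = 5 each; log2 difference -0.38, SE 0.15, limma adjusted p = 0.15). Exons of Igtp and Irgm2 overlap on the same strand of chromosome 11, so the split of reads between them is uncertain. Ifi47 (Irgd), another effector IRG protein, averaged 9.79 ± 1.40 FPKM in KO and 12.3 ± 4.59 FPKM in WT livers (SD, n = 5 each), and its WT values ran from 7.4 FPKM in WT 5 to 18.43 FPKM in WT 1.

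None of the 3 GBP members was called by limma, and 0 had an unadjusted p under 0.05. Gbp2, Gbp3 and Gbp7 had log2 differences of -0.24, -0.12 and 0.01, with 95% intervals from -0.61 to 0.13, from -0.57 to 0.32 and from -0.32 to 0.34, and limma adjusted p values of 0.42, 0.76 and 0.98. Their KO libraries spanned 1.84 to 3.0, 3.62 to 6.55 and 2.9 to 4.1 FPKM, and their WT libraries 2.31 to 4.53, 3.66 to 7.87 and 2.67 to 5.23 FPKM, so the genotypes overlapped throughout. The sign for Gbp7 changed without KO 3, WT 3, WT 4 or WT 5 and with library weights, and that for Gbp3 without WT 1. Of 7 other GBP genes tested, 0 were called by limma and 2, Gbp6 and Gbp10, had an unadjusted p under 0.05. Their log2 differences ran from -0.69 for Gbp10 (SE 0.28, limma adjusted p = 0.16) and -0.68 for Gbp6, larger than for any of the 5 IRG members, to -0.01 for Gbp9. Gbp2, Gbp3 and Gbp7 lie between 142530342 and 142638008 on chromosome 3 in mm10, 11.89 to 11.98 Mb from Etnppl. The GBP, IFIT and IRG families hold close copies, which makes the assignment of reads to single genes less certain.

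**Figure D3:**
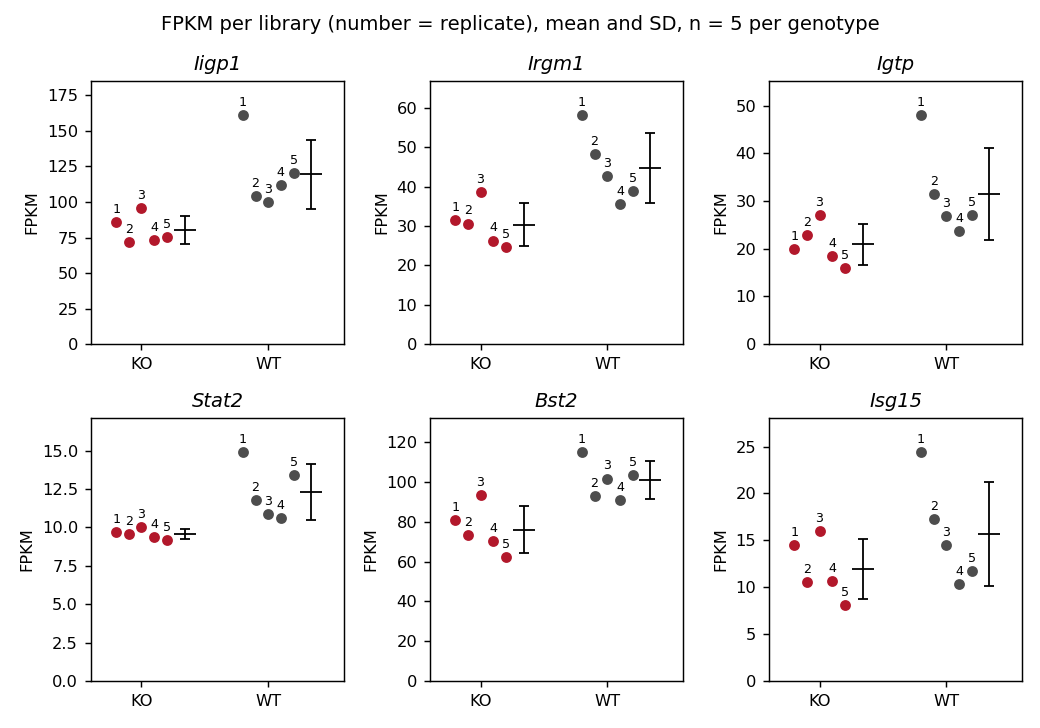
FPKM of 6 members in each library, with replicate numbers beside the points, KO left of WT in each panel, and the mean with its SD (n = 5 per genotype) as a bar to the right of the points. The KO and WT points separate for Iigp1 and Stat2, and only KO 3 reaches into the WT range for Irgm1, Igtp and Bst2. For Isg15 all KO points except KO 5 lie in the WT range. WT 1 is the highest point in every panel.

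Of the 4 transcription factors, Stat2 fell and 3 were not called. Stat2 was at 9.69, 9.59, 10.03, 9.39 and 9.17 FPKM in KO 1 to KO 5, against 14.91, 11.76, 10.85, 10.63 and 13.4 FPKM in WT 1 to WT 5. The KO libraries lay close together and below all WT libraries, the nearest being KO 3 and WT 4. Stat2 spans 128270559 to 128292849 on the plus strand of chromosome 10 in mm10. Stat2 thus differed by -0.34 on the log2 scale (SE 0.09, limma adjusted p = 0.04), and the call held only without WT 3 or without WT 4 (limma adjusted p up to 0.093 without any of the others). Irf7, which amplifies type I interferon production, was at 14.16, 17.09, 19.88, 16.87 and 12.37 FPKM in KO 1 to KO 5, against 29.42, 21.59, 26.71, 18.47 and 17.71 FPKM in WT 1 to WT 5 (log2 difference -0.48, SE 0.16, limma adjusted p = 0.086). Only KO 3 lay above any WT library. Irf1, induced early by interferon gamma, was at 7.43, 6.5, 7.25, 7.17 and 6.49 FPKM in KO 1 to KO 5, against 10.94, 10.08, 8.31, 6.61 and 10.16 FPKM in WT 1 to WT 5 (log2 difference -0.36, SE 0.12, limma adjusted p = 0.083). WT 4 alone lay among the KO libraries, and the gene was called when that library was left out. Irf9, the DNA-binding subunit of the type I complex, averaged 23.4 ± 1.93 FPKM in KO and 24.8 ± 3.32 FPKM in WT livers (SD, n = 5 each; log2 difference -0.08, 95% interval -0.28 to 0.12).

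None of the 7 sensors and RNA enzymes was called by limma, and 0 had an unadjusted p under 0.05. Zbp1, a sensor of left-handed nucleic acid that can start cell death, had the largest difference of them. It was at 4.44, 3.32, 4.2, 3.6 and 2 FPKM in KO 1 to KO 5, against 7.07, 4.59, 4.32, 4.33 and 3.87 FPKM in WT 1 to WT 5 (log2 difference -0.42, SE 0.19, limma adjusted p = 0.21). WT 1 was well above and KO 5 well below the other 8 libraries, which overlapped. Adar, which edits double-stranded RNA, and Oasl2, of the oligoadenylate synthetase family, had log2 differences of -0.18 (SE 0.09) and -0.19 (SE 0.14), with limma adjusted p values of 0.24 and 0.44. The cytosolic RNA helicases that sense viral RNA lay closer to 0. Ifih1 (MDA5) was at 0.04 with a 95% interval from -0.16 to 0.23, Ddx58 (RIG-I) at -0.06 with one from -0.30 to 0.17, and Dhx58 (LGP2), which modulates both, at -0.15 with one from -0.44 to 0.15. Eif2ak2 (PKR), the kinase that halts translation on double-stranded RNA, was at -0.005, with a sign that turned under 3 scalings and without KO 1, KO 5, WT 1 or WT 3.

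Among the 18 other effectors, Bst2 fell and 17 were not called. Bst2 was at 80.92, 73.21, 93.45, 70.38 and 62.26 FPKM in KO 1 to KO 5, against 115.1, 93.04, 101.8, 90.89 and 103.6 FPKM in WT 1 to WT 5. KO 3 lay just above WT 2 and WT 4, and the other KO libraries below all WT libraries. Bst2 thus differed by -0.41 on the log2 scale (SE 0.10, limma adjusted p = 0.031). The call was lost without KO 2, KO 4, KO 5, WT 1 or WT 5 (limma adjusted p up to 0.071). Bst2 spans 71534255 to 71537456 on the minus strand of chromosome 8 in mm10. It is also a marker of plasmacytoid dendritic cells. The other markers of those cells, Siglech and Ccr9, summed to 0.26 to 0.54 FPKM in KO and 0.25 to 0.55 FPKM in WT libraries, and neither reached the mean of 0.5 FPKM needed for testing.

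The classical antiviral effectors overlapped between genotypes. Isg15, a ubiquitin-like protein joined to other proteins, was at 14.45, 10.54, 15.97, 10.62 and 8.11 FPKM in KO 1 to KO 5, against 24.41, 17.24, 14.48, 10.36 and 11.72 FPKM in WT 1 to WT 5 (log2 difference -0.35, SE 0.24, limma adjusted p = 0.4). WT 3, WT 4 and WT 5 lay within the KO range. Parp14, a mono-ADP-ribosyltransferase, was at 5.18 to 7.32 FPKM in KO and 5.45 to 9.95 FPKM in WT libraries (log2 difference -0.23, SE 0.14, limma adjusted p = 0.34). Herc6, a ligase that attaches ISG15 in mice, was at 2.63 to 4.15 FPKM in KO and 3.7 to 4.68 FPKM in WT libraries (log2 difference -0.18, limma adjusted p = 0.36). Samd9l, a translation-repressing antiviral protein, and Dtx3l, a ubiquitin ligase that works with PARP9, had the largest differences above 0. Samd9l was at 4.75 to 6.52 FPKM in KO and 4.27 to 5.87 FPKM in WT libraries, which differed by 0.18 on the log2 scale (SE 0.10, limma adjusted p = 0.32), and Dtx3l was at 0.11 (SE 0.09, limma adjusted p = 0.49). Exons of Dtx3l and Parp9 overlap on opposite strands, and the sources used here give no strand setting for the counting.

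The IFIT proteins bind foreign RNA. Ifit1 was at 10.93, 10.81, 10.99, 7.51 and 5.6 FPKM in KO 1 to KO 5, against 19.44, 12.53, 12.73, 6.02 and 7.78 FPKM in WT 1 to WT 5. Its highest WT library was 3.23 times its lowest, the largest such ratio among the 37 in WT, and its log2 difference of -0.27 had a 95% interval from -0.93 to 0.39. Ifit3 was at -0.18 and Ifit2 at -0.08 (limma adjusted p = 0.69 and 0.76). Rsad2 (viperin) and its neighbour Cmpk2, a nucleotide kinase, were at 0.02 and -0.22, and Usp18, which removes ISG15 and restrains the type I receptor, was at 0.06 with a 95% interval from -0.38 to 0.50. Ifi44, Rtp4 and Xaf1 lay at -0.35, -0.19 and -0.18, and Lgals3bp, Ifi35 and Parp9 between -0.03 and -0.02. Intervals of this width do not show that the genes were alike in both genotypes.

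**Figure D4:**
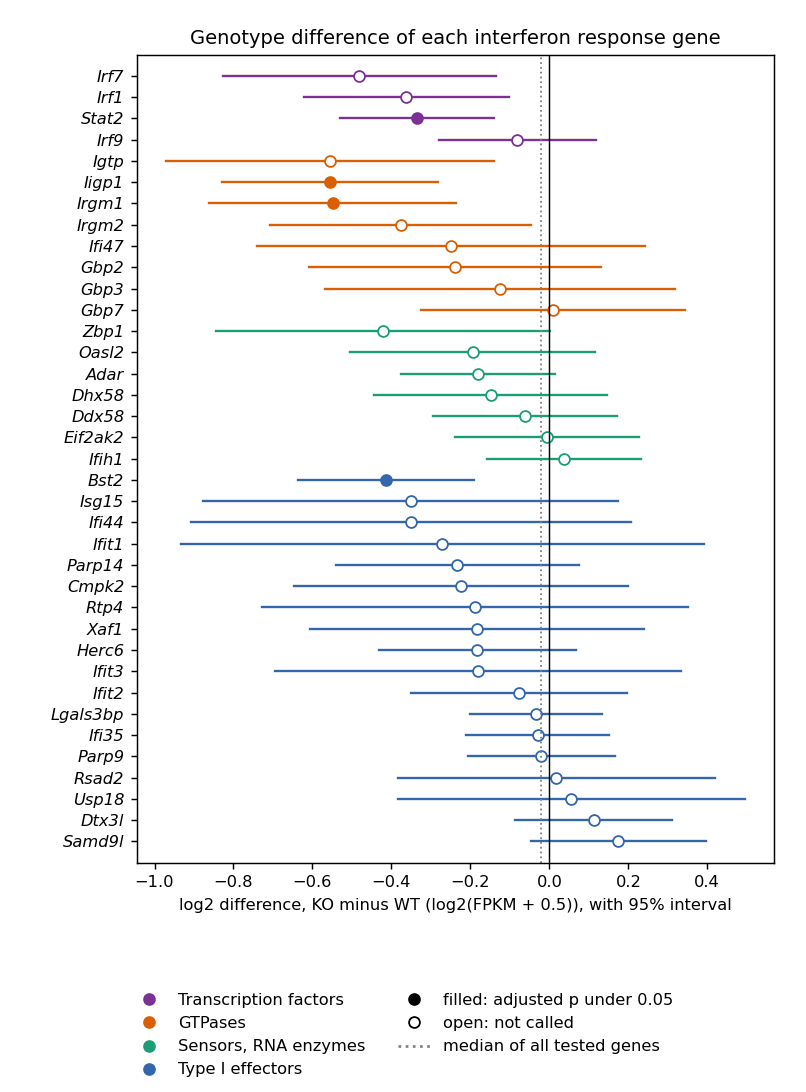
Log2 difference (KO minus WT, on log2(FPKM + 0.5)) of each of the 37 genes with its 95% interval from limma, coloured by role, with filled points for genes with an adjusted p under 0.05. The 4 filled points are Stat2, Iigp1, Irgm1 and Bst2, most points lie left of 0, and the dotted line marks the median of all tested genes at -0.02.

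Set side by side, the GTPases had a median log2 difference of -0.31, with 2 of 8 called lower. The other 29 members had one of -0.18, with 2 of 29 called lower, where 4.56% of all tested genes were. Within the GTPases the median was -0.55 for the 5 IRG members and -0.12 for the 3 GBP members. This division was made after the values were seen. The GBP median was thus less negative than that of the other 29 members. By role the medians were -0.35 for the factors, -0.15 for the sensors and -0.18 for the other effectors. Both sides shrank without WT 1, to -0.18 for the GTPases and -0.07 for the others, and the median of all 37 was then -0.07. Without KO 5 the medians were -0.26 for the GTPases, -0.07 for the others and -0.12 for all 37, and without WT 4 the median of all 37 was -0.28. Within each library, the median of the 8 GTPases (each as log2 level minus its mean over the 10 libraries) was compared with the same median over the other 29. The GTPase median was lower than that of the others by 0.15, 0.19, 0.03, 0.14 and 0.06 in KO 1 to KO 5, whereas in WT 1 to WT 4 it was higher by 0.30, 0.11, 0.11 and 0.14, and in WT 5 it was lower by 0.04. WT 5 thus lay beside KO 3, among the KO values. These values come from the same genes and libraries as the medians above. They restate that gap library by library and are no separate support for it. These are descriptions, and the difference between the groups of genes was not tested.

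**Figure D5:**
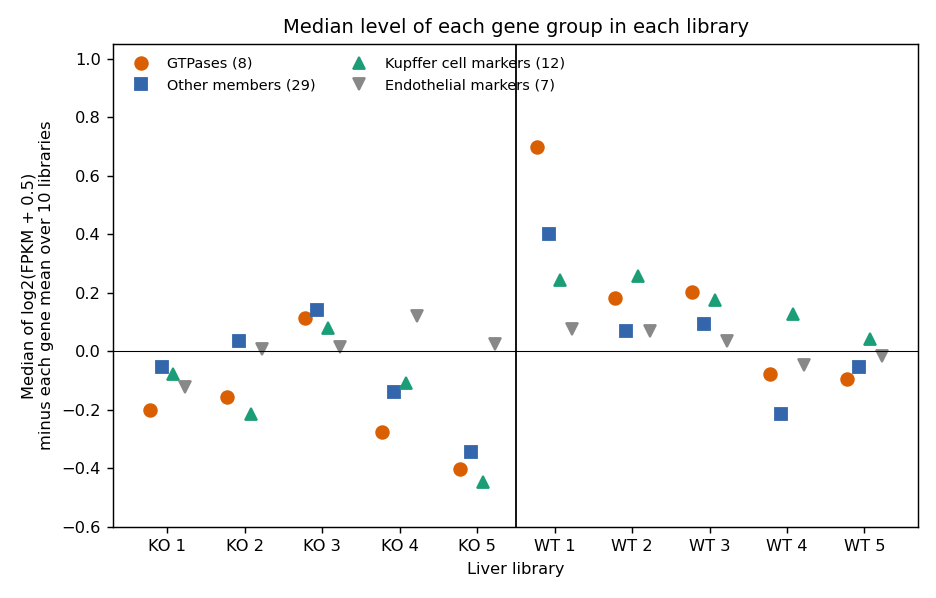
Median of log2(FPKM + 0.5), relative to each gene's mean over the 10 libraries, for the 8 GTPases, the other 29 members, 12 Kupffer cell markers and 7 endothelial markers in each library, KO left of WT. The GTPases and the other members are highest in WT 1 (0.70 and 0.40) and lowest in KO 5 (-0.40 and -0.35), and the Kupffer cell markers are also lowest in KO 5 (-0.45).

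Kupffer cells are the macrophages that reside in liver sinusoids, and of their 12 markers 5 were called lower in KO by limma and none higher, where 4.56% of all tested genes were lower. At an unadjusted p under 0.05, 8 were lower and 1 higher, the scavenger receptor gene Marco, at 7.95 to 26.06 FPKM in KO and 4.55 to 10.45 FPKM in WT libraries. The summed level of the 12 was 207.5 to 299.0 FPKM in KO libraries, against 297.6 to 340.1 FPKM in WT libraries. Of 4 genes of MHC class II presentation, itself induced by interferon gamma, 3 were called lower, with sums of 96.6 to 152.9 FPKM in KO and 155.6 to 198.3 FPKM in WT libraries. None of these markers was at 0 in all libraries. KO 5 had the lowest sum in both lists, and WT 1 the highest. The 7 markers of sinusoidal endothelium had 0 limma calls (1 lower and 1 higher at an unadjusted p under 0.05), with sums of 119.5 to 135.6 FPKM in KO and 124.8 to 133.7 FPKM in WT. Of 10 lymphocyte markers 4 were tested and none was called (1 at an unadjusted p under 0.05). None of 3 neutrophil markers was called (0 at an unadjusted p under 0.05). All 5 hepatocyte markers had a log2 difference above 0. Of these, 1 was called higher, Cps1 (log2 difference 0.58, limma adjusted p = 0.0034), where 3.98% of all tested genes were. In whole liver, fewer cells of a type and less RNA per cell cannot be told apart. The part of these cells in the interferon gene differences was not tested.

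Other genes of the pathway were taken from a list of 72 rows, of which 61 were tested, and 2 fell and none rose. Over all tested genes 4.56% fell, so 2 of 61 is no more than that share. Of the 61, 50 had a log2 difference below 0, as had 54.3% of all tested genes. Their median log2 difference was -0.13, against -0.02 over all tested genes. At an unadjusted p under 0.05, 10 of the 61 were lower, as were 13.6% of all tested genes. A lack of overlap, with every KO library below every WT library, was found for 3 of the 61 and for 4.78% of all tested genes. Ifnb1, Ifna4, Ifnl2 and Ifnl3, which encode interferons, were listed at 0 in all 10 libraries, and Ifng at 0 to 0.05 FPKM in KO and 0 to 0.14 FPKM in WT libraries. None of 5 tested receptor genes, 10 tested kinases and signal factors and 5 brakes on signalling was called by limma, with 2, 0 and 1 of them lower at an unadjusted p under 0.05.

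The called genes of that list were Gm4951 and Helz2. Gm4951, which RefSeq also lists as Ifgga2 beside Ifgga1 for Iigp1, was at 24.25, 20.94, 25.33, 23.94 and 25.91 FPKM in KO 1 to KO 5, against 46.97, 36.06, 32.82, 35.35 and 39.05 FPKM in WT 1 to WT 5. The genotypes did not overlap, KO 5 was the highest KO library here, and the gene differed by -0.64 on the log2 scale (SE 0.09, limma adjusted p = 0.003). This call held whichever library was left out (limma adjusted p up to 0.01), with log2 differences from -0.69 to -0.57. Gm4951 spans 60212080 to 60247820 and Iigp1 60376027 to 60392634 on the plus strand of chromosome 18 in mm10. Helz2, a helicase-domain coactivator of nuclear receptors, averaged 15.9 ± 1.42 FPKM in KO and 19.2 ± 1.29 FPKM in WT livers (SD, n = 5 each; log2 difference -0.27, limma adjusted p = 0.04), and its call was lost under each of 3 scalings (limma adjusted p up to 0.056) and without any library except KO 2 and WT 4 (up to 0.093). Gbp6, named like Gbp10 after its values were seen, did not overlap between genotypes. It was at 4.03 to 6.8 FPKM in KO and 7.43 to 16.03 FPKM in WT libraries (log2 difference -0.68, SE 0.20, limma adjusted p = 0.059). It was called without WT 1, at a log2 difference of -0.48, and also with the filter at 5 FPKM and with library weights. A further row with the symbol Gbp6 lay at no more than 0.37 FPKM and was not tested, and the exons of both overlap.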

How the data were processed

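Poly-A RNA from snap-frozen livers was sequenced in paired ends, and the deposited table gave FPKM per gene and library, computed by the authors. Per the submitters' processing notes STAR, RSEM, R 4.0.2, DESeq, DESeq2 and mm10 were used, with no role named. No annotation release and no strand setting for the counting stand in the sources used here. The absolute depth is not given either, and relative depth was estimated from the steps between values of 442 low genes, where library pairs differed from one set of depths by at most 2.5%.

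FPKM was used as deposited, as log2(FPKM + 0.5), which understates differences of low genes. Of 47702 genes, 12247 averaged 0.5 FPKM or more over the 10 libraries, and these entered a limma fit (version 3.58.1, under R 4.3.3), two-sided, with genotype alone in the model and eBayes run with trend and robust set. A count model does not suit FPKM, and none was run. The fit was tested on simulated data with 200 changed genes. It called 54.6% of genes given a log2 change of 0.5, 93.6% at a change of 1 and 100% at 2. Of its calls 4.74% were false. Changes near 0.5 were thus often missed. The simulated noise was independent between genes, and the changed genes were drawn from all tested genes. The members spread more than all tested genes and varied together, so these shares may not hold for them. Etnppl was also compared with an exact permutation test. Lists are described by counts and medians only.

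The members, gene lists and alternatives were chosen with earlier results of these data known. Genes given in full were those called and, in each role group, up to 3 with the smallest p, and every other member is given more briefly. Isg15 and Ifit1 were given by library outside that rule, after their values were seen. Other pathway genes were named where called, and the interferon genes, Gbp6, Gbp9, Gbp10, Marco, Apoa1 and Cps1 were named after their values were seen. The division of the GTPases by family was also made after the values were seen. A gene of the planned pathway list is not reported here. Alternatives covered the pseudocount, the filter, the scaling, the eBayes setting, library weights, a replicate block, leaving out each library and the motif definition. Positions came from a GENCODE annotation of GRCm38, and promoters from RefSeq tables of GRCm38.p6, in which no window was found for Iigp1, Dhx58, Zbp1, Usp18, Rtp4, Parp9 and Parp14. In 32 of 36 member windows the last 20 bases were found in a transcript of the gene.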

Additional observations from a re-analysis of the deposited data

Results flagged for a closer look

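In 96 groups of 5 libraries, the highest or the lowest library was compared with its nearest neighbour relative to the range of the group (Dixon's test at the 95% level). An outlying library was found in 3 groups, where independent groups would give about 4.8 by chance. The groups share the same libraries and many of these genes vary together, so the number 4.8 is no fair yardstick. All 3 were WT 1. Zbp1 was at 7.07 FPKM in WT 1 and at 3.87 to 4.59 FPKM in the other WT libraries. Herc6 was at 4.68 FPKM in WT 1 and at 3.7 to 3.85 FPKM in the other WT libraries. Parp9 was at 38.57 FPKM in WT 1 and at 28.75 to 29.86 FPKM in the other WT libraries.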

How the results depend on the processing

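The count of 4 members called lower, and 0 higher, was the same under both other pseudocounts, the filter at 5 FPKM (28 members tested), 3 scalings, the eBayes setting without robust options and library weights, and each time with the same 4 genes. Without a filter, 370 of all genes were called lower and 294 higher, with 1 member (Iigp1), 0 factors, 1 GTPase and 0 effectors lower; more genes were then tested. With the replicate block, 321 of all genes were lower and 230 higher, with 3 members (Bst2, Iigp1 and Irgm1) and 0 factors. Over all tested genes, same-numbered libraries correlated at -0.207 to 0.208 in their deviations from the genotype means, over 0.1 in 2 of 5 pairs. There 2 of 5 KO libraries correlated best with their own number, so the numbers were not taken as pairs. That check was not run on the 37 genes alone. Their centred library medians were lowest in replicates 4 and 5 of both genotypes (KO -0.153 and -0.354, WT -0.167 and -0.053). The highest were KO 3 (0.13) and WT 1 (0.484), which differ in number. Whether same-numbered libraries share a source of variation in these genes was not tested. With each library left out in turn, 316 to 541 genes were lower and 258 to 454 higher, with 0 to 5 members, 0 to 2 factors, 0 to 2 GTPases and 0 to 1 effectors lower. No member was called without KO 2, KO 4, KO 5 or WT 5, and Iigp1 alone without WT 1. The difference in Etnppl ranged from -49.26 to -32.99 FPKM. Of all calls 46.7% were higher in the values as deposited, 53.7% once median-of-ratios factors were applied, 50.9% with upper-quartile factors and 56.1% with quantile normalization. A stricter ISRE of 3 blocks was present in 13.3% of member genes with a window, against 0.133% of all genes. Signs turned for Eif2ak2 (0.012, 0.006 and 0.009 in the order of those scalings), Parp9 (0.015 after quantile scaling), and Gbp7 and Rsad2 (-0.042 and -0.009 with library weights). With a library left out, signs turned within these ranges: Rsad2 -0.104 to 0.138, Eif2ak2 -0.08 to 0.074, Gbp7 -0.063 to 0.151, Usp18 -0.083 to 0.184, Parp9 -0.049 to 0.057, Gbp3 -0.252 to 0.034, Ddx58 -0.131 to 0.015, Ifit2 -0.148 to 0.008, Ifi35 -0.085 to 0.024, Lgals3bp -0.083 to 0.01, and Ifih1 -0.015 to 0.104. In all, 30 of 791 gene values changed sign, 41 lost a call and 4 gained one. The causes of these changes were not tested. Unknown absolute depth limits the precision given for the lowest genes.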
